A study of Mus musculus with 5 samples.

Results

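Thrombospondin 1, fibronectin, osteopontin, the matrix proteases MMP12 and MMP14, an MMP inhibitor and the urokinase system form the group of 10 genes described here: Thbs1, Fn1, Spp1, Tgfbi, Mmp12, Mmp14, Timp2, Plau, Plaur and F10. They were chosen by their TPM in tumor against spleen in these same libraries, so their difference between the tissues is given as a description and was not tested. All 10 were found among the 19726 gene symbols listed for each library. TPM is a transcript's share of the library corrected for its length, so that levels of different genes can be compared. The 5 libraries hold total RNA from cells labelled CD4+ T cells, the helper and regulatory lymphocytes. The mice were C57/Bl6j, 7 weeks old and wild-type. Spleen gave 3 libraries (replicates 1, 2 and 3) and MC38 tumors, grown from a transplantable mouse colon carcinoma line, gave 2 (replicates 2 and 3). The labels name no treatment, and they do not say whether replicates came from separate mice, so the spread between them may be technical.

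Cells remodel the matrix around them by secreting adhesive glycoproteins and by cutting what is already there. Urokinase, the product of Plau, binds its receptor on the cell surface and turns plasminogen into plasmin, which cleaves fibrin and matrix proteins and can activate some metalloproteinases. MMPs cleave collagen, elastin and other matrix proteins, and TIMPs inhibit them. In tumors, macrophages and fibroblasts are well known sources of these proteins.

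The libraries labelled CD4+ T cells differed in more than tissue. T cell genes were present in all 5 libraries but lower in tumor: 11 T cell markers summed to between 925 and 1213 TPM in the spleen libraries and to 238 and 304 TPM in the tumor libraries. Cd4 stood at 115 ± 16.5 TPM (SD, n = 3) and 27.0 ± 0.22 TPM (SD, n = 2), and Cd3e, which encodes a CD3 chain, at 86.1 ± 24.4 and 13.3 ± 0.65 TPM. The 16 macrophage and monocyte markers summed to between 30.3 and 43.6 TPM in the spleen libraries and to 7142 and 7495 TPM in the tumor libraries, with 15 of the 16 higher in both tumor libraries than in every spleen library. Ly6c2, a monocyte surface antigen gene, was the highest of them in tumor (2260 ± 34.7 TPM), and Cd163 was the exception, at 0.89 ± 0.16 and 0.80 ± 0.11 TPM. The macrophage markers differed between the same libraries that every comparison below rests on, and their part in these results was not tested. Bulk RNA cannot tell fewer cells of a type from less RNA per cell. The listed values summed to 268987 to 359532 TPM per spleen library and 569309 to 596116 TPM per tumor library, so the choice of scaling bears on every difference. Read depth was not derived, and no counting error is given. As a background level, the 95th percentile of 1134 olfactory receptor genes lay between 10.6 and 16.2 TPM in the spleen libraries and at 7.59 and 10.7 TPM in tumor replicates 2 and 3.

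All 10 genes were higher in both tumor libraries than in each spleen library. Their summed level was 43.9, 35.1 and 42.1 TPM in spleen replicates 1, 2 and 3, and 3886 and 3423 TPM in tumor replicates 2 and 3. Every one of them lay at or below the background level in all 3 spleen libraries and above it in both tumor libraries. Fold values below therefore rest on spleen levels that could not be told from background. Among the 12979 genes tested, with a mean of at least 1 TPM, 46.6% were likewise higher in both tumor libraries than in every spleen library. A direction alone thus says little about these 10, which were picked for it, and their sizes ranged widely. Thbs1, Spp1 and Tgfbi made up 36.2%, 23.3% and 20.9% of the group's tumor total, and the other 7 genes the rest.

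**Figure D1:**
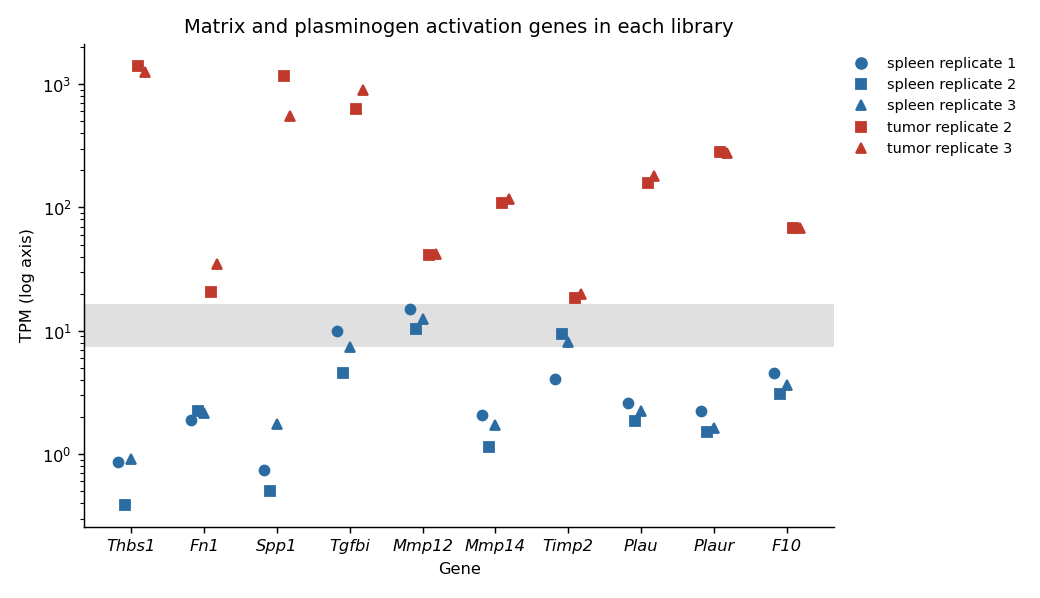
TPM (log axis) of each of the 10 genes in the 3 spleen (blue) and 2 tumor (red) libraries, one point per library; the grey band spans the 5 libraries' 95th percentiles of olfactory receptor genes, 7.59 to 16.2 TPM. Thbs1 and Spp1 lie furthest apart between tissues and Mmp12 and Timp2 closest.

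Among the secreted matrix proteins, Thbs1 had the highest tumor level and the widest gap. Thrombospondin 1 is a matricellular glycoprotein that binds CD47 and CD36 and can activate latent TGF-beta. Thbs1 (chromosome 2, 118111876 to 118127133, GRCm38, plus strand) was at 0.86, 0.39 and 0.91 TPM in spleen replicates 1, 2 and 3, and at 1404 and 1245 TPM in tumor replicates 2 and 3. On the log2(TPM + 1) scale, which understates changes of low genes, its difference was 9.60 ± 0.21 (SE), the 5th largest of all tested genes. Every SE given here is limma's, in which a gene's variance is drawn towards that of genes of like level. It can thus understate the spread of a variable gene. The members' own pooled replicate SD on this scale ranged from 0.15 for Plau to 0.58 for Spp1, and was 0.46 for Timp2. By level Thbs1 was the 27th gene of tumor replicate 2 and the 35th of tumor replicate 3.

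Spp1 encodes osteopontin, a secreted ligand of CD44 and of integrins. Spp1 (chromosome 5, 104435118 to 104441050, plus strand) was at 0.74, 0.50 and 1.77 TPM in spleen and at 1153 and 550 TPM in tumor, a difference of 8.69 ± 0.24 on the log2 scale. The tumor libraries themselves stood 2.10-fold apart for this gene. That is unusual here: of 867 genes with at least 100 TPM in both tumor libraries, 5 (0.577%) differed by 2-fold or more between them. Besides Spp1 these were Lars2 and the MHC class II genes H2-Aa, H2-Ab1 and H2-Eb1. Lars2, a mitochondrial leucyl-tRNA synthetase gene whose level was very high, was 2.08-fold higher in tumor replicate 2, as Spp1 was. The class II genes, which antigen-presenting cells use, were 2.23-fold to 2.31-fold higher in tumor replicate 3.

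Tgfbi encodes a secreted adhesion protein that TGF-beta induces. Tgfbi (chromosome 13, 56609523 to 56639562, plus strand) was at 9.89, 4.55 and 7.37 TPM in spleen and at 633 and 895 TPM in tumor, a difference of 6.56 ± 0.23 on the log2 scale. Fn1, the fibronectin gene (chromosome 1, 71585520 to 71653200, minus strand), was at 1.89, 2.22 and 2.14 TPM in spleen and at 20.7 and 35.0 TPM in tumor, a difference of 3.18 ± 0.22. Both were higher in tumor replicate 3 than in replicate 2, by 1.42-fold and 1.69-fold, the opposite order to Spp1. Fibronectin is an abundant matrix protein, but its transcript here was the second lowest of the 10 in tumor.

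The urokinase system was higher in tumor as enzyme and receptor alike. Plau, the gene of the serine protease urokinase (chromosome 14, 20836660 to 20843385, plus strand), was at 2.59, 1.87 and 2.26 TPM in spleen and at 157 and 178 TPM in tumor. Plaur, the gene of the receptor that holds urokinase at the cell surface (chromosome 7, 24462484 to 24475968, plus strand), was at 2.25, 1.5 and 1.62 TPM in spleen and at 282 and 274 TPM in tumor. Their log2 differences were 5.70 ± 0.21 and 6.65 ± 0.21. The receptor transcript stood above that of its ligand in both tumor libraries and below it in all 3 spleen libraries, where both lay within background. F10 encodes coagulation factor X, the protease that converts prothrombin to thrombin. F10 (chromosome 8, 13037308 to 13056676, plus strand) was at 4.53, 3.07 and 3.63 TPM in spleen and at 68.7 and 68.4 TPM in tumor, a difference of 3.89 ± 0.21.

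The metalloproteinase members split into one large and one small difference. Mmp14 encodes a membrane-anchored MMP that cleaves collagen and activates pro-MMP2. Mmp14 (chromosome 14, 54431612 to 54445364, plus strand) was at 2.10, 1.13 and 1.73 TPM in spleen and at 109 and 116 TPM in tumor, a difference of 5.43 ± 0.21. Mmp12, the gene of macrophage elastase (chromosome 9, 7344381 to 7369499, plus strand), was at 15.0, 10.4 and 12.5 TPM in spleen and at 41.4 and 41.8 TPM in tumor, a difference of 1.66 ± 0.21. Its spleen values were the highest of the 10 genes, yet within background. Timp2 encodes an MMP inhibitor that also takes part, with MMP14, in activating pro-MMP2. Timp2 (chromosome 11, 118301069 to 118355740, minus strand) was at 4.08, 9.48 and 8.18 TPM in spleen and at 18.4 and 19.8 TPM in tumor, a difference of 1.35 ± 0.23. Timp2 thus had the lowest tumor level and the smallest difference of the 10.

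In tumor, the order of mean levels ran from Thbs1 (1324 ± 113 TPM, SD, n = 2) through Spp1 (851 ± 426), Tgfbi (764 ± 186), Plaur (278 ± 5.70), Plau (168 ± 15.2), Mmp14 (112 ± 5.19), F10 (68.6 ± 0.20), Mmp12 (41.6 ± 0.28) and Fn1 (27.9 ± 10.1) to Timp2 (19.1 ± 0.99). Spp1 and Tgfbi exchanged places between the tumor libraries, and their difference in mean level was smaller than either SD. Fn1 and Timp2 did not overlap, but their means also differed by less than the SD of Fn1. The other neighbours kept their order in both tumor libraries.

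The size of these differences depended on scaling, and those of Mmp12 and Timp2 lay nearest to 0. With each library brought to the same listed total, the ratio of mean levels fell from 3.30-fold to 1.69-fold for Mmp12 and from 2.63-fold to 1.41-fold for Timp2. The groups still did not overlap for either gene. For the other 8 genes the ratio under equal totals ranged from 7.03-fold for Fn1 to 921-fold for Thbs1. Each member's log2 difference was positive under all 13 alternatives computed for it. The smallest were those of Timp2 and Mmp12, at 0.42 and 0.69, with the 20 most abundant genes left out of the totals.

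**Figure D2:**
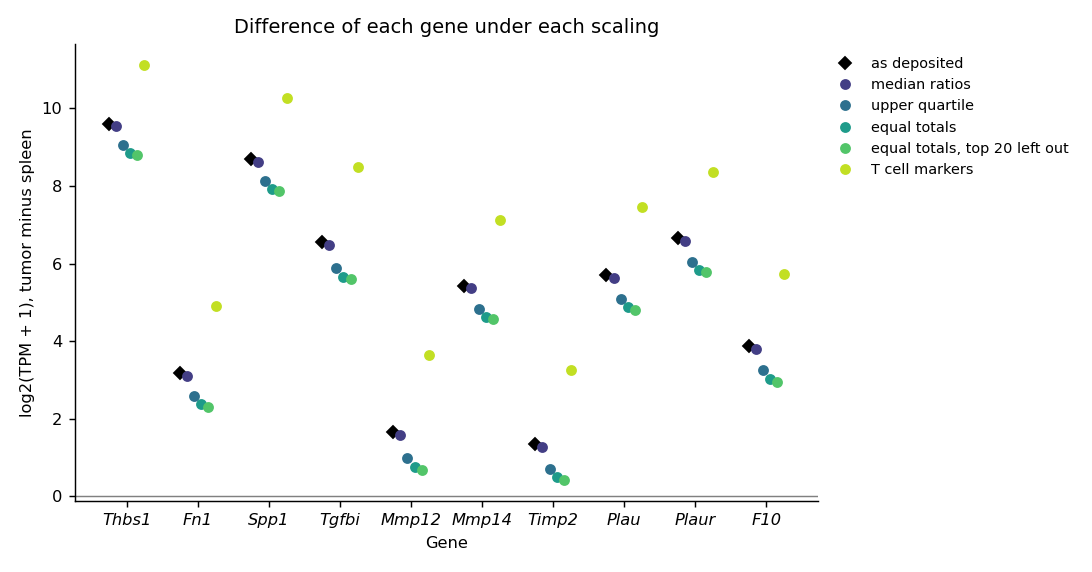
Difference of mean log2(TPM + 1), tumor minus spleen, for each gene as deposited (black diamonds) and under 5 other scalings (coloured circles). Timp2 and Mmp12 come closest to 0, at 0.42 and 0.69 with the top 20 genes left out; scaling on T cell markers gives the largest difference for every gene.

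Promoter sequences are shown for 3 members because their 4 windows held letters of AP-1 or PU.1, factors of activated and myeloid cells. RefSeq promoter windows, 250 bases before to 50 after an annotated start on GRCm38.p6, were found for 7 of the 10 genes, in 9 windows; Thbs1, Fn1 and Plau had no entry. The AP-1 motif TGANTCA was in 2 of the 9 windows and in 7.81% of all 32851 windows. The PU.1 core GAGGAA or its reverse complement was in 3 of the 9 and in 28.3% of all. The cAMP response element TGACGTCA was in 0 of the 9, against 1.79% of all. The hypoxia core ACGTG was in 2 (F10 and Mmp14), against 19.6%, and TATAAA in 2 (Spp1 and Mmp12), against 13.6%. Both strands were searched, and the motifs do not overlap in these windows. In Plaur (chr7:24462233-24462532, plus strand) the AP-1 match starts 69 bases before the annotated start and PU.1 matches start 216 and 131 bases before it. In Mmp12, a PU.1 match starts 86 bases before the first annotated start (chr9:7344147-7344446, plus strand). At the second of its annotated starts (chr9:7347124-7347423, plus strand), the AP-1 match starts 44 bases before the start. In Spp1 (chr5:104434861-104435160, plus strand) a PU.1 match starts 113 bases before it. Capitals mark the AP-1 and PU.1 matches. A match describes letters and shows no binding.
Plaur: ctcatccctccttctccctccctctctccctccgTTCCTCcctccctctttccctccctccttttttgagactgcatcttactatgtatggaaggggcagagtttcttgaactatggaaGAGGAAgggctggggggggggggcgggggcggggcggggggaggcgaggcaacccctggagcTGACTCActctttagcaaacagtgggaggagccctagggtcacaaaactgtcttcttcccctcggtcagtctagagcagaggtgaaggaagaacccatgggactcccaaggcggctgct
Mmp12, first start: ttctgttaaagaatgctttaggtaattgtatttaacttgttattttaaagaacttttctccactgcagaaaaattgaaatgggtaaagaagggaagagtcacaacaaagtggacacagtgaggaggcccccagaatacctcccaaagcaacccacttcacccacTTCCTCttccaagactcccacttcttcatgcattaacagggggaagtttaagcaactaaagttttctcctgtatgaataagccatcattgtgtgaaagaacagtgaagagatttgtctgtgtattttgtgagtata
Mmp12, second start: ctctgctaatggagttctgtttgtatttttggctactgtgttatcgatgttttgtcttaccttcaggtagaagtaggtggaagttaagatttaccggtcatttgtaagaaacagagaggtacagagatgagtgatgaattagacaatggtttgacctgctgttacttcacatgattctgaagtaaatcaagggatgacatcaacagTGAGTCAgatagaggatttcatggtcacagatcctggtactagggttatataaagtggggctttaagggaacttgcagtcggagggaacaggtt
Spp1: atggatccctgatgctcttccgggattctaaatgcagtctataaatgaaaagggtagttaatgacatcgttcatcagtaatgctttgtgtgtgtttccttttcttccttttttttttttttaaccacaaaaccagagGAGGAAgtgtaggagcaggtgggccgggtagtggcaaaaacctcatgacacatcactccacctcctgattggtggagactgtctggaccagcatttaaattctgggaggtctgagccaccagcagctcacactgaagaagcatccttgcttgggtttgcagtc

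Other genes of matrix remodelling, blood clotting and their receptors were compared to see how far the 10 genes stood with their families. Of 143 such genes listed, 88 had a mean of at least 1 TPM and were tested with limma on log2(TPM + 1). At an adjusted p below 0.05, 49 of the 88 (55.7%) rose in tumor and 11 (12.5%) fell, with a median log2 difference of 0.83. Rises took 40.9% and falls 18.1% of all 12979 tested genes, whose median was 0.23. Of the 49, 34 stood above background in both tumor libraries, and 17 (34.7%) had a spleen mean under 1 TPM and so passed the filter only through tumor, against 11.7% of the 5309 rises among all genes. The larger share of rises in these lists is therefore a description, and no p is given below for a gene that passed only through its higher tissue. Some genes given a p still lay within background in every spleen library, so the size of their rise is uncertain. These were Anxa2, Lrp1, F13a1, Mmp19, Adam8, Adam9, Vcan, Plod3, Itgam and Sdc4. Falls depended on scaling: 27 of 90 then tested fell with equal totals, 34 of 89 with the top 20 genes left out, and 1 of 99 on T cell marker scaling, where 95 rose.

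**Figure D3:**
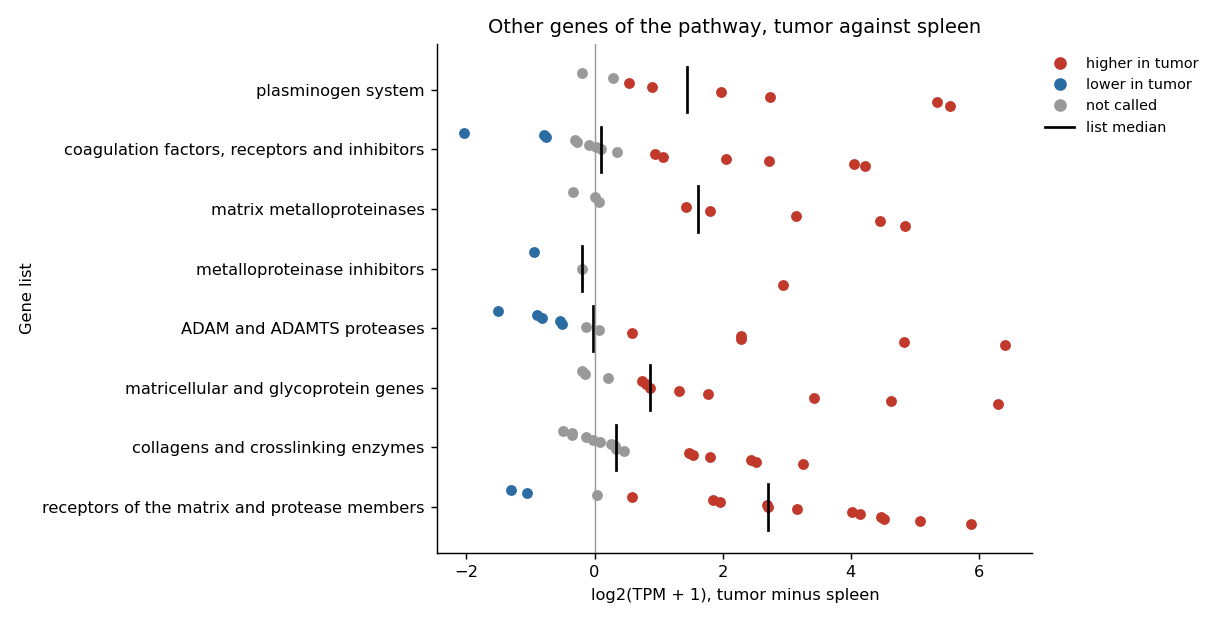
Difference of log2(TPM + 1), tumor minus spleen, for the 88 tested genes in 8 lists, one point per gene; red marks genes higher and blue lower at a limma adjusted p below 0.05, grey those not called, and black bars the list medians. The receptor list has the highest median, 2.70.

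In the plasminogen system, 6 of 8 tested genes rose, none fell, and the median log2 difference was 1.44. Rises took 40.9% of all tested genes. These counts depended on scaling. Upper-quartile scaling gave 4 rises and 1 fall. Equal totals gave 4 rises and 2 falls, as did totals without the top 20 genes. On T cell marker scaling 8 rose and none fell. Anxa2 and S100a10, whose products form a complex that binds plasminogen and its activator tPA at the cell surface, were among the 6 rises. Anxa2 went from 9.56 ± 0.51 TPM (SD, n = 3) to 495 ± 32.1 TPM (SD, n = 2), a log2 difference of 5.55 ± 0.21 (SE; limma adjusted p = 2.2e-28). S100a10 was already at 123 ± 18.7 TPM in spleen and reached 483 ± 32.7 TPM. Lrp1, an endocytic receptor that clears urokinase bound to its inhibitor, went from 1.23 ± 0.50 to 87.8 ± 4.70 TPM (log2 difference 5.34 ± 0.21, limma adjusted p = 4.3e-27). The remaining genes of this paragraph were named after their values were seen. Serpinb2, an inhibitor of urokinase, went from 0.18 ± 0.060 to 6.91 ± 0.82 TPM, within background in both tissues. The plasminogen gene itself, Plg, which the liver expresses, was at 0.29 ± 0.082 and 0.077 ± 0.00036 TPM, and Plat, the gene of tPA, at 1.75 ± 0.32 and 2.41 ± 1.06 TPM. Both lay within background, and Plat was not called.

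Of 15 clotting genes tested, 6 (40.0%) rose and 3 (20%) fell, near the shares among all genes, and the median was 0.11. Falls numbered 7 with equal totals and 9 with the top 20 genes left out. When scaled on T cell markers, 15 clotting genes rose and 1 fell. Thbd, the gene of thrombomodulin, which turns thrombin towards anticoagulation, went from 0.10 ± 0.022 to 19.7 ± 1.02 TPM, having passed the filter only through tumor. F13a1, the gene of the fibrin-crosslinking transglutaminase subunit, went from 2.72 ± 0.26 to 60.6 ± 0.46 TPM (log2 difference 4.05 ± 0.20, limma adjusted p = 6.3e-23). F7, named after its values were seen because it lies 1498 bases upstream of F10, went from 0.25 ± 0.098 to 7.30 ± 1.30 TPM, with its tumor replicate 3 value of 6.38 TPM below the background level. The 3 falls were all among the 4 protease-activated receptors, which thrombin and other proteases cleave: F2rl1, F2r and F2rl3. F2rl1 went from 6.10 ± 0.79 to 0.73 ± 0.058 TPM, having passed the filter, like F2rl3, only through spleen. F2r was at 4.49 ± 0.18 and 2.31 ± 0.84 TPM and F2rl3 at 1.55 ± 0.16 and 0.49 ± 0.27 TPM, the latter 2 named after their values were seen. All 3 lay within background in every library. The call was lost for F2r without tumor replicate 3 (limma adjusted p = 0.14) and for F2rl3 without tumor replicate 2, and both had a positive sign when scaled on T cell markers.

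Of 8 other metalloproteinase genes tested, 5 rose, none fell, and the median was 1.62. Rises took 40.9% of all tested genes. Of the 5 rises, 4 passed the filter only through tumor, and 2 stood above background in both tumor libraries. Where a mean of at least 5 TPM was required, only 2 genes, Mmp13 and Mmp19, were tested, and both rose. Totals without the top 20 genes gave 3 falls. Upper-quartile scaling, equal totals and the replicate block gave 1 fall each. The rises stayed at 5 under these, and numbered 10 on T cell marker scaling. Mmp13, a collagenase gene, went from 0.27 ± 0.065 to 35.5 ± 0.63 TPM, having passed the filter only through tumor. Mmp19 went from 1.80 ± 0.47 to 60.2 ± 3.44 TPM (log2 difference 4.46 ± 0.21, limma adjusted p = 2.9e-24). Mmp16, the highest of the list in spleen, had 2.92 ± 0.89 TPM in spleen, 2.92 ± 1.01 TPM in tumor and no call. Mmp12 lies in a cluster of metalloproteinase genes on chromosome 9, of which 9 were listed. Within it, Mmp13, Mmp12, Mmp8 and Mmp27 were higher in both tumor libraries than in every spleen library. So were 46.6% of all 12979 tested genes, and Mmp12 was picked for this contrast. Mmp8, a neutrophil collagenase gene, reached 12.4 and 8.20 TPM, the latter within background, and Mmp27 reached 4.4 and 3.22 TPM, both within it; these genes were named after their values were seen. The interspersed Mmp1b, Mmp3, Mmp10, Mmp20 and Mmp7 stayed at 0.54 TPM or less in every library and were not tested. Mmp12 shares 1261 bases with Mmp1b on the opposite strand, and the strand setting of quantification is not stated in the labels. Among inhibitors, Timp1 went from 0.58 ± 0.35 to 10.9 ± 1.02 TPM, just above background in tumor and tested only through it. No gene of the inhibitor list reached a mean of 5 TPM, so none could be called where that was required. Reck, a membrane-bound MMP inhibitor gene, went from 1.86 ± 0.44 to 0.52 ± 0.55 TPM, having passed the filter only through spleen. Its call was lost without tumor replicate 3 and on T cell marker scaling. Timp3 had 4.69 ± 1.43 TPM in spleen, 3.91 ± 0.79 TPM in tumor and no call; it was called lower under 3 scalings (equal totals, upper quartile, and totals without the top 20 genes).

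**Figure D4:**
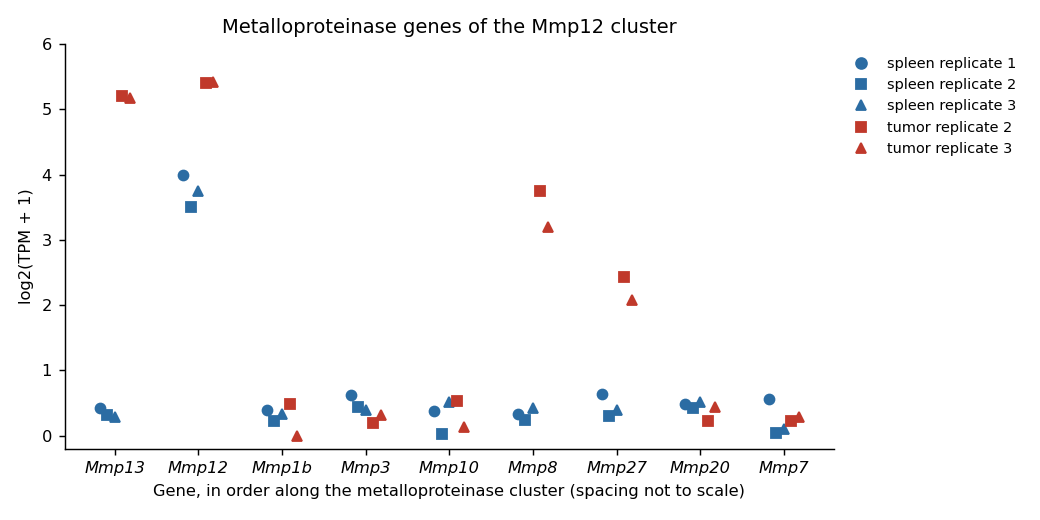
log2(TPM + 1) of the 9 listed metalloproteinase genes of the cluster on chromosome 9, in genomic order, in each spleen (blue) and tumor (red) library. Mmp13, Mmp12, Mmp8 and Mmp27 are higher in tumor, while the genes between and beside them stay at 0.54 TPM or less in every library.

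Of 12 ADAM and ADAMTS protease genes tested, 5 (41.7%) rose, near the share among all genes, and 5 fell, against 18.1% of all genes. Falls numbered 2 without tumor replicate 2, 3 without tumor replicate 3 or spleen replicate 3, 8 with the top 20 genes left out, and 0 (with 11 rises) on T cell marker scaling. Adam8, a leukocyte sheddase gene, went from 1.95 ± 0.14 to 250 ± 5.94 TPM (log2 difference 6.41 ± 0.21, limma adjusted p = 6.2e-31), and Adam9 from 1.63 ± 0.51 to 73.2 ± 7.03 TPM (4.83 ± 0.21, limma adjusted p = 2.1e-25). Adamts10 fell from 17.4 ± 2.27 to 5.44 ± 0.84 TPM (-1.51 ± 0.21, limma adjusted p = 1.7e-08) and had a difference of 0.38 when scaled on T cell markers. Adam12, the highest of this list in spleen, was at 46.0, 27.0 and 49.0 TPM in spleen and 16.5 and 29.1 TPM in tumor, so that the groups overlapped. Its call as lower (limma adjusted p = 0.0026) was lost without tumor replicate 2 (limma adjusted p = 0.28), and its sign turned when scaled on T cell markers.

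Matricellular and glycoprotein genes rose in 8 of 11 tested cases and fell in none (median 0.86), but 3 of the 8 stood above background in both tumor libraries. Those 3 were Emilin2, Vcan and Ecm1. Of all tested genes, 40.9% rose and 18.1% fell. Emilin2, an elastin-associated glycoprotein gene, went from 0.23 ± 0.093 to 94.8 ± 4.66 TPM, having passed the filter only through tumor. Vcan, the gene of the proteoglycan versican, went from 1.13 ± 0.58 to 50.7 ± 6.97 TPM (log2 difference 4.63 ± 0.22, limma adjusted p = 3.6e-24). Ecm1 went from 9.45 ± 1.88 to 110 ± 7.99 TPM (3.43 ± 0.21, limma adjusted p = 1.3e-19). With equal totals, 5 genes of this list rose and 1 fell, and on T cell marker scaling 15 rose.

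Collagen genes, which encode the main structural matrix proteins, were low in both tissues. As deposited, none of the 7 tested chains was called by limma in either direction and 1 had an unadjusted p below 0.05. Their median difference was -0.02 (range -0.50 to 0.34). All 12 listed chains stayed within background in every library, at 9.75 TPM or less. Over the chains and their enzymes together, falls numbered 5 with equal totals, 5 with the top 20 genes left out, 3 on the upper quartile and 3 without spleen replicate 2. When scaled on T cell markers, 19 rose, more than the 11 enzymes listed, so chains were among them. Of the enzymes and chaperones that modify and fold collagen, 6 of 9 tested rose and none fell. Among all tested genes, 40.9% rose and 18.1% fell. Plod3, a lysyl hydroxylase gene, went from 3.08 ± 0.73 to 37.6 ± 7.18 TPM (log2 difference 3.25 ± 0.21, limma adjusted p = 1.4e-18). P4ha1 and P4hb, the subunit genes of prolyl 4-hydroxylase, went from 10.5 ± 0.71 to 64.8 ± 10.2 TPM and from 16.3 ± 1.17 to 93.6 ± 16.7 TPM. P4ha2, a related catalytic subunit gene, had 17.5 ± 3.57 TPM in spleen, 13.5 ± 3.67 TPM in tumor and no call. P4ha2 was called lower with equal totals (limma adjusted p = 0.0056), on the upper quartile, with the top 20 genes left out and without spleen replicate 2 (limma adjusted p = 0.026). P4HB is also a general protein disulfide isomerase, so its gene is not specific to collagen.

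Of 15 receptor genes for the secreted and protease members, 12 (80.0%) rose and 2 (13.3%) fell, and the median was 2.70. Of all tested genes, 40.9% rose and 18.1% fell. Cd44, an osteopontin and hyaluronan receptor, went from 18.8 ± 2.77 to 319 ± 12.3 TPM (log2 difference 4.02 ± 0.21, limma adjusted p = 1.5e-22). Itgam, the integrin chain CD11b that pairs with Itgb2 on myeloid cells and associates with the urokinase receptor, went from 2.40 ± 0.51 to 197 ± 7.88 TPM (5.87 ± 0.21, limma adjusted p = 4.3e-29). Sdc4, a heparan sulfate proteoglycan that binds fibronectin, went from 2.45 ± 0.60 to 114 ± 4.69 TPM (5.08 ± 0.21, limma adjusted p = 2.1e-26). Cd47, the thrombospondin 1 receptor named here after its values were seen, went from 67.6 ± 22.0 to 239 ± 11.1 TPM. The 2 falls were those of Itga4 and Itgb3. Itga4, the integrin chain of lymphocytes that binds fibronectin and VCAM-1, went from 110 ± 21.1 to 44.1 ± 9.36 TPM (-1.30 ± 0.21, limma adjusted p = 8.2e-07). Itgb3, named after its values were seen, went from 11.3 ± 2.78 to 4.85 ± 0.93 TPM, within background in all libraries but spleen replicate 2. Both differences turned positive when scaled on T cell markers, at 0.76 and 0.78.

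Markers of other cells that make matrix proteins were read beside these results. Cd4, Cd3e, Cd163, Pdgfra, Fap, Tagln, Ppbp, S100a8, Kdr, Cdh5 and Egfl7 were named after their values were seen. The 10 fibroblast markers summed to 100 to 121 TPM (spleen) and 59.0 to 78.3 TPM (tumor), most of it in spleen from Thy1, which mouse T cells carry. Of the 5 tested fibroblast markers, 3 were called higher in tumor (Pdpn, Fap and Tagln) and 1 lower (Thy1). Of all tested genes, 40.9% were called higher and 18.1% lower. Pdpn and Fap reached 24.4 ± 2.20 and 11.9 ± 3.91 TPM in tumor. Tagln went from 4.08 ± 0.42 to 6.79 ± 0.80 TPM, within background in every library. Pdgfra was at 0.67 ± 0.33 and 0.44 ± 0.072 TPM, too low to be tested. Platelets store thrombospondin 1, and the 8 platelet and megakaryocyte markers summed to 6.72 to 8.32 TPM (spleen) and 91.8 to 116 TPM (tumor). Of these, Pf4 held 94.5 ± 18.0 TPM in tumor, and the defining gene Itga2b was at 2.90 ± 0.50 and 2.52 ± 0.82 TPM, within background. The 10 neutrophil markers summed to 19.1 to 26.3 TPM (spleen) and 70.2 to 75.9 TPM (tumor), with S100a8 at 1.5 ± 1.51 TPM in tumor and Csf3r at 55.5 ± 3.28 TPM. Epithelial markers, 9 genes, summed to 3.55 to 4.30 TPM (spleen) and 2.77 to 2.79 TPM (tumor). The 8 dendritic cell markers summed to 51.5 to 60.7 and 117 to 166 TPM, most of it in tumor from Itgax at 112 ± 33.9 TPM. The 8 endothelial markers summed to 65.7 to 74.7 and 96.7 to 105 TPM, with Pecam1 at 62.0 ± 6.47 and 59.0 ± 5.92 TPM. Kdr, the VEGF receptor gene, went from 0.65 ± 0.19 to 32.9 ± 0.32 TPM and carried the higher tumor sum, while Cdh5 and Egfl7 were also called higher, at 2.01 ± 0.18 and 2.02 ± 0.68 TPM in tumor. The 6 B cell markers summed to 7.91 to 9.48 and 19.8 to 22.4 TPM. What any of these cells contributed was not tested.

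**Figure D5:**
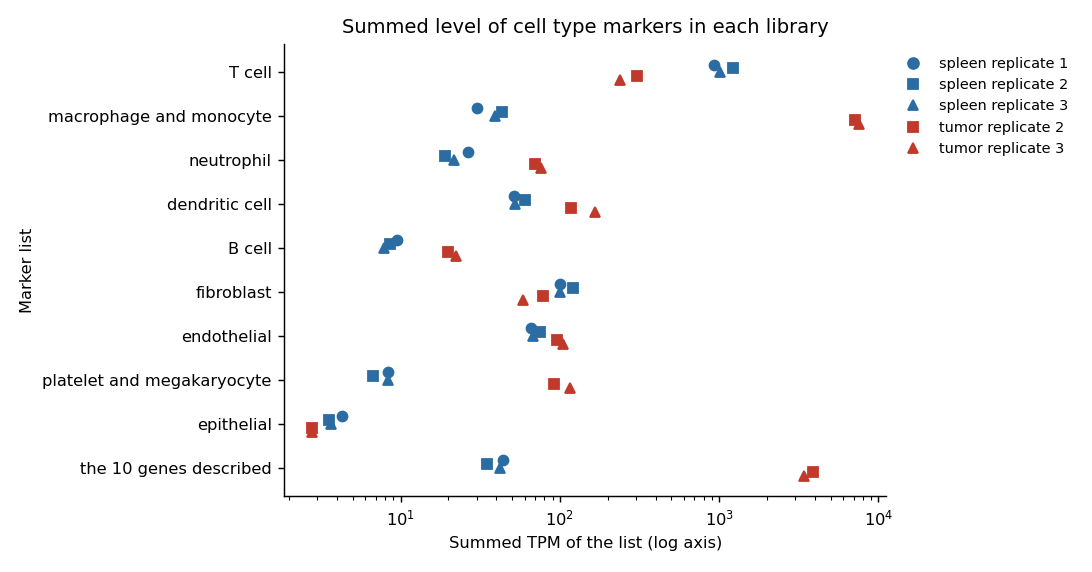
Summed TPM (log axis) of each marker list and of the 10 genes in each spleen (blue) and tumor (red) library. The macrophage list and the 10 genes are separated most between the tissues, while the epithelial sum is below 5 TPM in every library.

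The genes closest in level and pattern were sought for each member by the root mean square difference of log2(TPM + 1) over the 5 libraries, as a description. Plaur lay closest to Clec4e and Emp1 (0.10 for each), and Plau to Csf2rb and Itgam (0.14 and 0.17). Mmp12 lay closest to Trim30b and Reep3 (0.13 and 0.17), Fn1 to Rassf4 and Myadm (0.15 and 0.16), and Timp2 to Prkrip1 and Tmem19 (0.16 and 0.19). F10 lay closest to Aoah and Frmd4b (0.19 and 0.23) and Mmp14 to Eps8 and Cd180 (0.23 for each). The members of highest tumor level had less close neighbours: Thbs1 lay closest to Il1rn and Ccl2 (0.39 and 0.44), Tgfbi to Dusp1 and Plin2 (0.34 and 0.49), and Spp1 to Cxcl2 and Ifi211 (0.42 and 0.49).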

How the data were processed

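Total RNA was sequenced as stranded, ribosomal RNA-depleted paired-end libraries, per the labels' protocols. Each deposited file gives 1 value per gene symbol and library. No header names the unit. The deposited values were read as TPM, because they are fractional and kallisto, with DESeq2 and mm10, is named without version or role in the submitters' processing notes. Counts were not derived, so the test planned for TPM was used: limma 3.58.1 in R 4.3.3 on log2(TPM + 1). It compared the tissues over the 12979 genes whose mean reached 1 TPM, with a trended prior variance, two-sided tests and Benjamini-Hochberg adjustment over all of them, and calls were made at an adjusted p below 0.05 (residual degrees of freedom 3, prior 44.1). The fit was tested on simulated data. A protein table was not used here, so the planned protein descriptions were left out. Gene positions are from GENCODE M21 (GRCm38).

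The members and lists were chosen with earlier results of these data known. Named genes were all members; in each list the 2 largest called rises, the largest called fall and the highest gene of each tissue; each marker list's highest gene in either tissue; and the 2 nearest profiles. Other genes are said to be named after their values were seen. Alternatives were other scalings, pseudocounts, filters, thresholds, tests, a replicate block and each library left out. In the plasminogen list, 1 gene is counted but its values are not reported here.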

Additional observations from a re-analysis of the deposited data

How the results depend on the processing

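Scaling moved counts most. Of all genes tested, 5309 rose and 2347 fell in the deposited TPM; rises and falls numbered 2697 and 6789 under equal totals, 3372 and 5797 under upper-quartile scaling, 2617 and 7501 when totals omitted the top 20 genes, and 12823 and 123 under T cell marker scaling. Rises were 69.3% of calls as deposited, 28.4%, 36.8%, 25.9% and 99.0% under these, and 63.8% by median ratios; the median of all genes went from 0.23 to -0.56, -0.37, -0.62, 1.97 and 0.16. Against a 2-fold change 2199 rose and 274 fell. Falls numbered 1456 of the 8535 genes then tested with a mean of at least 5 TPM, and 1552 at a threshold of 0.01. Leaving out each library gave 4311 to 5894 rises and 1225 to 2609 falls, fewest without tumor replicate 2.

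Of the pathway genes 49 rose and 11 fell; 95 rose when scaled on T cell markers. Falls numbered 27 with equal totals, 20 on the upper quartile, 34 with the top 20 left out and 1 on T cell markers. They numbered 7 of the 43 genes then tested with a mean of at least 5 TPM, and 2 against a 2-fold change. Leaving out each library gave 44 to 51 rises and 7 to 12 falls, 7 without tumor replicate 2.

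The members' median difference, 5.57, moved to 6.11 and 3.62 with pseudocounts of 0.1 and 10, 4.75 with equal totals, 4.96 on the upper quartile, 4.68 with the top 20 left out and 7.29 on T cell markers. It ranged from 5.45 to 5.67 on leaving out each library.

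Signs turned for Adam12 (1.21), Adamts10 (0.38), F2r (0.85), F2rl3 (0.19), Itga4 (0.76), Itgb3 (0.78), P4ha2 (1.61) and Timp3 (1.51) on T cell markers, and for Mmp16 (-0.74) with the top 20 left out.

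With the replicate block, 4877 genes rose and 2013 fell, 48 and 11 of the pathway genes, and the members' median was 5.67. The labels do not say that numbers pair the libraries. Over genes, deviations from the tissue means correlated at 0.20 for replicates 2 and 0.07 for replicates 3. Spleen replicate 1 with tumor replicate 3, of unlike number, gave 0.19. With 2 tumor libraries the tumor deviations are mirror images of each other, so these values cannot decide on pairing.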
